A study of Mus musculus with 2 samples.

Results

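The forkhead (Fox) and Sox genes encode 2 families of sequence-specific transcription factors, and the protein-coding Fox and Sox genes of the mouse annotation were taken by symbol, with Sry left out. This gave 63 genes among 21951 protein-coding genes, of which 44 were Fox genes and 19 were Sox genes. TET2 chromatin immunoprecipitation sequencing (ChIP-seq) had been run on 1 TET2 library, with 1 input library as its control. Both came from stem cells of mouse inguinal white fat that were grown with basic FGF (10 ng/mL), used at passage 3 and turned into adipocytes with 0.5 mM IBMX, 1 μM dexamethasone and insulin, after which insulin alone (10 μg/mL) was given every 48 h. The labels and the study's methods differ in the insulin dose of the induction. No transgene, knockout or treatment group was part of the comparison, and the number of mice behind the cells was not given in the sources used here. What follows rests on the deposited list of TET2 peaks, called over input. The input has no list of its own here, and binding data hold no expression, so the adipocyte label could not be checked against marker genes.

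Forkhead proteins bind DNA through a winged-helix domain, and Sox proteins bind the minor groove through an HMG box and bend the DNA. Members of both families set cell identity in the embryo, and in adult tissue the Foxo proteins are held out of the nucleus when insulin signalling through AKT is active. Foxc2 is known for its action in fat, and TET2 is an enzyme that oxidises methylated cytosine, most often at CpG sites, and that has no DNA-binding domain of its own.

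Of the 63 genes, 21 had a TET2 peak whose midpoint lay within 1 kb of an annotated transcription start site (TSS), 33.3% (exact 95% binomial interval 22.0 to 46.3%), against 24.6% of all protein-coding genes. A midpoint 1 to 3 kb from a TSS was found at 6 genes (9.52%, 3.58 to 19.6%), against 5.05% of all coding genes. A midpoint in the gene body, over 3 kb from every TSS of the gene, was found at 9 genes (14.3%, 6.75 to 25.4%), against 13.0%. Altogether 32 of the 63 genes had a peak in at least 1 of these 3 places (50.8%, 37.9 to 63.6%), against 36.4% of all coding genes, and 31 had none. With 1 TET2 library there is no replicate, so no test was made, and these intervals cover counting error only. With peaks of −log10 p of at least 7 the shares were 7.94% in promoters (5 of 63) and 15.9% in any place (10 of 63). All coding genes then had 12% and 18.4%, so the higher Fox and Sox values were not seen with the stronger peaks alone. These counts are small and no interval is given for them, so a lower share at Fox and Sox genes is not shown either.

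The whole list held 14103 peaks of 375 to 3392 bp, each with the −log10 p that the peak caller gave it, from 3.07 to 335 with a median of 6.21. Of these peaks, 15.5% had a value below 5, which is the p-value setting of the caller that the study states. Read counts per peak are not part of the list, so the depth behind each peak is unknown. The X chromosome held 1.53 peaks per Mb (exact Poisson interval 1.35 to 1.72), against 5.61 per Mb on the autosomes. Of the 4 Fox and Sox genes on X, Foxp3 had a peak, and Foxo4, Foxr2 and Sox3 had none.

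The sequence at 6 of the peaks is shown here, since the results return to them: the Foxo genes with a peak and Foxc2, which tie the families to insulin action and fat, and the promoter peaks of Foxj3, Foxn4 and Sox18, which were among the 5 promoter peaks of a Fox or Sox gene with the largest −log10 p. Each is the 150 bases around the peak midpoint in GRCm38, read 5′ to 3′ on the strand of the gene, with every CpG in capitals. The windows of Foxc2, Foxo3, Foxo6 and Sox18 were centred in coding exons, that of Foxn4 lay upstream of the gene, and that of Foxj3 lay in the first intron of its transcript with the longest coding sequence.
Foxo6, chr4:120286833-120286982, minus strand: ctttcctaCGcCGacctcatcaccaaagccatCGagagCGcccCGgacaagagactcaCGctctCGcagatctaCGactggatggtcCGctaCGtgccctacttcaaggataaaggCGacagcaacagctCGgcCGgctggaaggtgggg
Foxo3, chr10:42197390-42197539, minus strand: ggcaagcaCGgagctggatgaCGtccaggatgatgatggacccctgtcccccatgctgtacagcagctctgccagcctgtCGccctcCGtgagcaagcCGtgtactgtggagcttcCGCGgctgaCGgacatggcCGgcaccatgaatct
Foxc2, chr8:121117459-121117608, plus strand: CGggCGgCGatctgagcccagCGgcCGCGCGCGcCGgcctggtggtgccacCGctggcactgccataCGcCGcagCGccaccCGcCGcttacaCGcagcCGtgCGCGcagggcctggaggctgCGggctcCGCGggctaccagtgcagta
Foxj3, chr4:119540325-119540474, plus strand: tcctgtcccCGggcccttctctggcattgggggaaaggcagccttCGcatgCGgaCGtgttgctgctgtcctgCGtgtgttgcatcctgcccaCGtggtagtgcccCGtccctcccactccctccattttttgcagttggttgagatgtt
Foxn4, chr5:114274533-114274682, minus strand: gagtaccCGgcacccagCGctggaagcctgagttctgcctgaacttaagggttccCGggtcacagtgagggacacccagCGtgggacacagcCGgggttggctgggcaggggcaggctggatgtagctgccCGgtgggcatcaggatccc
Sox18, chr2:181670689-181670838, minus strand: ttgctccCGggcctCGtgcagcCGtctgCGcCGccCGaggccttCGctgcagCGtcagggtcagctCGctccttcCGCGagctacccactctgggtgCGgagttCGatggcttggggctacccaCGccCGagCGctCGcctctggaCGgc

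These windows differed in CpG content. The Foxc2 window held 22 CpG sites, the Sox18 window 18, the Foxo6 window 13, the Foxo3 window 9, the Foxj3 window 7 and the Foxn4 window 6. Of these 6 peaks, Foxo3 and Foxj3 had the largest −log10 p, and their windows were among the 3 with the fewest sites.

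The 4 Foxo genes encode the forkhead factors that act downstream of insulin, and 2 of them had a peak. At Foxo6, the peak (chr4:120286701-120287116) had a −log10 p of 6.26, close to the median of all peaks, and its midpoint lay 441 bp downstream of the single annotated TSS, in coding exon 1 of 2. At Foxo3, a regulator of stress resistance and of autophagy, the peak (chr10:42197219-42197711) had a −log10 p of 9.59, and 10.8% of all deposited peaks had a larger value. Its midpoint lay 60901 bp downstream of the nearest Foxo3 TSS, in coding exon 3 of 4, and the peak held 39 CpG sites in 493 bp. The Foxo3 peak was therefore far from any annotated start, while the Foxo6 peak lay at the start of its gene.

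Foxo1, the member best known for the insulin response of liver and fat, had no peak in any of the 3 places. The nearest peak lay 165769 bp from its TSS and had a −log10 p of 5.42, although the Foxo1 promoter was rich in CpG, with an observed over expected CpG ratio of 1.09. Foxo4, on X, also had none, and its nearest peak lay 539387 bp away. A gene without a peak in a list of 1 library is a gene at which none was called, and the list does not show whether TET2 was absent there.

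Foxc2, which promotes thermogenic and insulin-sensitive features of fat cells, had a peak at chr8:121117150-121117918 with a −log10 p of 8.11, and 22.3% of all peaks had a larger value. The midpoint lay 1363 bp downstream of the TSS, in the single exon and in its coding part. Its 769 bp held 97 CpG sites, a CpG ratio of 0.928, and its near edge was less than 1 kb from the TSS, so that Foxc2 joins the genes with a promoter peak if any base of a peak is counted instead of the midpoint. Foxc1, its closest relative and a factor of vessel and eye development, had a peak with a −log10 p of 6.04 at 4933 bp from the TSS, in the 3′ part of its single exon that is not translated.

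**Figure D1:**
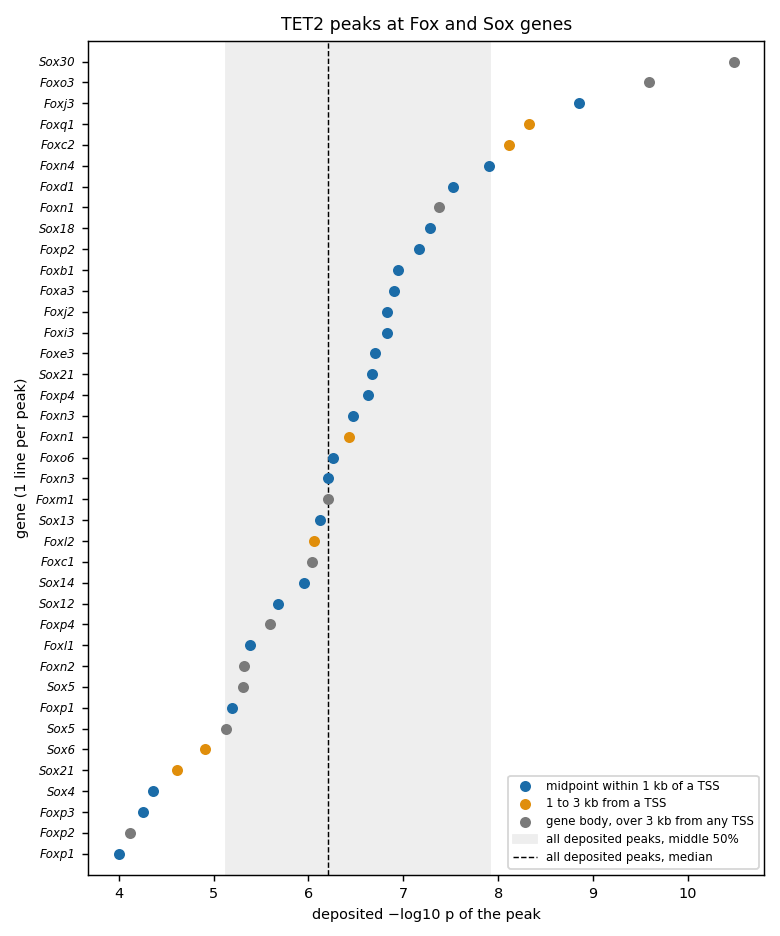
Deposited −log10 p (x axis) of each of the 39 TET2 peaks at Fox and Sox genes, 1 line per peak, coloured by place (blue, within 1 kb of a TSS; orange, 1 to 3 kb; grey, gene body). The dashed line is the median of all deposited peaks (6.21) and the shaded band their middle 50%; 20 of the 39 peaks lie above the median, and the largest values are those of Sox30 (10.5) and Foxo3 (9.59).

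The plot of −log10 p by gene places all 39 peaks on 1 scale. They were 39 different peaks, with 23 in promoters, 6 at 1 to 3 kb and 10 in gene bodies, and no peak was placed at more than 1 Fox or Sox gene. The lowest −log10 p was 4.0, the median 6.26 and the highest 10.5, and 20 of 39 were above the median of all peaks. A −log10 p of at least 7 was reached by 10 of them (25.6%), against 39.2% of all peaks, and 6 were below 5 (15.4%), against 15.5%. Promoter peaks of Fox and Sox genes had a median of 6.62, against 6.83 for the peaks within 1 kb of a TSS of any coding gene. So peaks at these genes sat near the middle of the list, and the largest of them was at rank 961 of 14103.

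The Foxp genes, which act in lung, brain and lymphocytes, had a promoter peak at each of their 4 members. The interval is 39.8 to 100%, against 24.6% of all coding genes with such a peak. Foxp2, known for its part in the circuits of vocal learning, had one with a −log10 p of 7.16 at 408 bp downstream of a TSS, and Foxp4 had one of 6.62 whose midpoint was 1 bp upstream of its start. Foxp1, a regulator of lymphocyte and heart development, had 2 promoter peaks, of 5.19 and 4.0, at 2 different starts among its 22. Foxp3, the defining factor of regulatory T cells, had a peak of 4.25 at 480 bp from a TSS, and 124 bp from the start of Ppp1r3f, which encodes a glycogen-targeting subunit of a protein phosphatase. The Foxp3 peak was therefore nearer to another gene, and no RefSeq start of Foxp3 lay within 1 kb of it. Foxp2 and Foxp4 each had a further peak in the gene body, with −log10 p of 4.12 and 5.59. The Foxp2 body peak was 97.1% repeat-masked sequence, without a CpG, and had 3 other matches in the genome. These genes are long and have many starts, from 7 at Foxp3 to 22 at Foxp1. Of coding genes with 2 or more starts, 27.4% had a promoter peak. All coding genes had a median of 3 starts, so that class is not a like background for the Foxp genes. The part of the number of starts at these genes was not tested. No Fox subfamily has more than 4 genes, and in others, such as Foxf and Foxk, no gene had any peak.

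The Foxn genes also had a peak at each of their 4 members (39.8 to 100%, against 36.4% of all coding genes), at different places. Foxp and Foxn stand out by their counts among many small Fox subfamilies. Their intervals do not allow for that choice, so they do not show an excess at these genes. Foxn4, a factor of retinal and spinal cord neurons, had a promoter peak of 7.91 at 801 bp upstream of a TSS, and Foxn3, a checkpoint factor that represses transcription, had 2 promoter peaks, of 6.47 and 6.21, at 3 bp upstream and 441 bp downstream of 2 of its 14 starts. Foxn1, the master regulator of thymic epithelium, had no promoter peak but a peak of 6.43 at 1569 bp in its first intron and another of 7.37 in coding exon 3 of 9. Both Foxn1 peaks were poor in CpG, with ratios of 0.254 and 0.314. Foxn2 had a peak of 5.32 in coding exon 6 of 6, far from its start.

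Among the Foxa to Foxe genes, which pattern endoderm, mesoderm and organs of the embryo, the peaks were spread thinly. Foxa3, a pioneer factor of liver and gut, had a promoter peak of 6.90 with its midpoint 9 bp upstream of the TSS, while Foxa1 and Foxa2 had none. Foxb1, of the hypothalamus, had one of 6.94, and Foxb2 none. Foxd1, of the stroma of the kidney, had a promoter peak of 7.53 that was the most CpG-rich of all peaks at Fox and Sox genes by ratio (1.03), while Foxd2, Foxd3 and Foxd4 had none. Foxe3, needed for the lens, had a peak of 6.70 that was 1044 bp long, more than its gene span of 867 bp, and Foxe1, of the thyroid, had none.

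The remaining Fox genes with a promoter peak were Foxi3, Foxj2, Foxj3 and Foxl1. Foxj3, which acts in muscle and spermatogenesis, had the largest −log10 p of any promoter peak of a Fox or Sox gene (8.85, chr4:119540209-119540591), with its midpoint 122 bp upstream of 1 of its 10 starts. Foxj2 and Foxi3, the latter a factor of ear and hair development, both had 6.82, and Foxl1, of the mesenchyme of the gut, had 5.39. Foxj1, the master gene of motile cilia, had none. Further out, Foxq1, which acts in hair and in epithelial tumours, had a peak of 8.32 at 1917 bp and Foxl2, of the ovary, had one of 6.05 at 1651 bp, both with the start of another gene nearer than their own. Foxm1, a driver of mitosis, had a peak of 6.21 in the untranslated part of its last exon that lay 266 bp from the start of Tex52. Genes without a peak included Foxf1, Foxf2, Foxh1, Foxk1, Foxk2, Foxr1, Foxr2, Foxs1, Foxi1 and Foxi2. The Foxk proteins act in glucose and autophagy control, and the Foxk2 promoter had the highest CpG ratio of all 63 genes, 1.29.

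Of the 19 Sox genes, 6 had a promoter peak (31.6%, 12.6 to 56.6%) and 9 had any peak (47.4%, 24.4 to 71.1%). For the 44 Fox genes the counts were 15 (34.1%, 20.5 to 49.9%) and 23 (52.3%, 36.7 to 67.5%). The intervals of the families overlap over most of their length. Sox18, a factor of blood and lymph vessels, had the largest promoter value among them (7.28, 876 bp downstream of the TSS, in coding exon 2 of 2).

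The Sox genes fall into groups by sequence, of 1 to 3 genes each. With any peak at 0 of 3 genes the interval is 0.0 to 70.8%, and at 3 of 3 it is 29.2 to 100%. Both include the 36.4% of all coding genes, so the counts do not tell the groups apart. In group B2, of neural repressors, both Sox14 (5.96) and Sox21 (6.67) had a promoter peak, and Sox21 had another of 4.62 at 2030 bp in its coding exon. Group C gave promoter peaks at Sox12 (5.68) and at Sox4 (4.36), a factor of progenitor cells, but none at Sox11. Group D, of cartilage and neural development, had a peak at each of its 3 genes. Sox13 had a promoter peak of 6.12, Sox6 had a peak of 4.91 at 1156 bp upstream of a start, and Sox5 had 2 in its gene body, of 5.31 and 5.13. The Sox6 midpoint was 224 bp from the start of the antisense transcript Sox6os, and no RefSeq start of Sox13 lay within 1 kb of the Sox13 peak.

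No peak was called at any of the 3 group B1 genes, Sox1, Sox2 and Sox3, which keep stem cells and neural progenitors undifferentiated. The same was true of the 3 group E genes, Sox8, Sox9 and Sox10, of cartilage, testis and neural crest, where the nearest peak was 28393 bp (Sox10) or more away. Sox2 had a peak 7642 bp from its TSS and Sox1 had one at 9430 bp, both outside the windows used. In group F, Sox7 and Sox17 had none, and neither had Sox15.

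The largest −log10 p at any Fox or Sox gene was that of Sox30, a factor of sperm development (10.5, chr11:46014134-46014598), in intron 4 of 4. This peak was 85.6% repeat-masked sequence and had 396 other matches of at least 100 bp and 90% identity in the genome. Of the 39 peaks, 34 had no other such match, and besides Sox30 and the Foxp2 body peak the peaks of Foxm1, Foxn2 and Foxe3 had 1 or 2. Over all deposited peaks, 15.0% were at least 80% masked, against 2 of 39 here (5.13%). How reads that map to several places entered the Sox30 value was not tested.

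**Figure D2:**
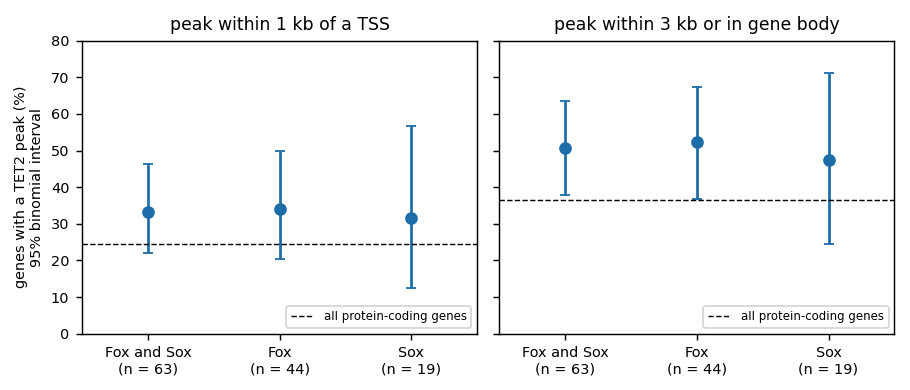
Share of genes with a TET2 peak (y axis, percent) within 1 kb of a TSS (left) or within 3 kb or in the gene body (right) for all Fox and Sox genes, Fox genes and Sox genes. Points are shares, bars are exact 95% binomial intervals, and the dashed lines mark all protein-coding genes (24.6% and 36.4%), which fall inside every interval on the left and below those of the first 2 groups on the right.

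The share with any peak stood above that of all coding genes, as the plot of shares shows, and the background depends on the CpG content of the promoter. Promoters with a CpG ratio of at least 0.6, taken over the 300 bases around the TSS and at the start with the highest ratio, were more common at Fox and Sox genes (45 of 63, 71.4%) than at coding genes (56.6%). Among coding genes with such promoters, 37.4% had a promoter peak and 50.6% had a peak in any place. Of the 45 Fox and Sox genes with such promoters, 16 had a promoter peak (35.6%, 21.9 to 51.2%) and 24 had any peak (53.3%). In this class of promoters the Fox and Sox shares were therefore close to the background.

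At the 18 Fox and Sox genes with a CpG ratio under 0.6 the picture was different in size. A promoter peak was found at 5 of them (27.8%, 9.69 to 53.5%), against 7.77% of coding genes with such promoters, and any peak at 8 (44.4%, 21.5 to 69.2%), against 18.0%. Both intervals lie above these shares, but the promoter count is small. With RefSeq starts Foxp3 and Sox13 have no promoter peak, while Foxq1 (promoter ratio 0.256) gains one. No interval is given for this class with RefSeq starts, so whether it would still lie above 7.77% was not tested. The Foxp3 peak (−log10 p of 4.25) was 124 bp from the start of Ppp1r3f, and the Sox13 midpoint lay in coding exon 2 of 14. The genes with a promoter peak were Foxd1, Foxe3, Foxp3, Sox13 and Sox18, with promoter ratios between 0.490 and 0.596. With 5 genes the interval is wide, and 4 of these peaks were themselves rich in CpG but centred downstream of the TSS, at Foxd1 (ratio 1.03), Foxe3 (0.996), Foxp3 (0.890) and Sox18 (0.884), beyond the 50 bases after the TSS that the promoter window covers.

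Fox and Sox genes with and without a promoter peak had close median CpG ratios in their promoters, and differed at the low end. The median ratio was 0.734 at the 21 genes with a peak and 0.756 at the 42 genes without, and with the outermost start alone the order turned (0.687 and 0.672). In the Fox genes alone the medians were 0.827 and 0.763. The lowest ratio was 0.490 at a gene with a peak, and 11 genes without one had a lower ratio, down to 0.128. Over all coding genes the medians were 0.869 and 0.551. Of the 10 Fox and Sox promoters with the highest ratios, 5 had a promoter peak, those of Foxp1 (1.22), Foxp2 (1.16), Foxj3 (1.08), Sox12 (1.07) and Foxj2 (1.01), and 5 had none, those of Foxk2 (1.29), Foxo1 and Foxm1 (both 1.09), Sox2 (1.05) and Foxk1 (1.00).

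**Figure D3:**
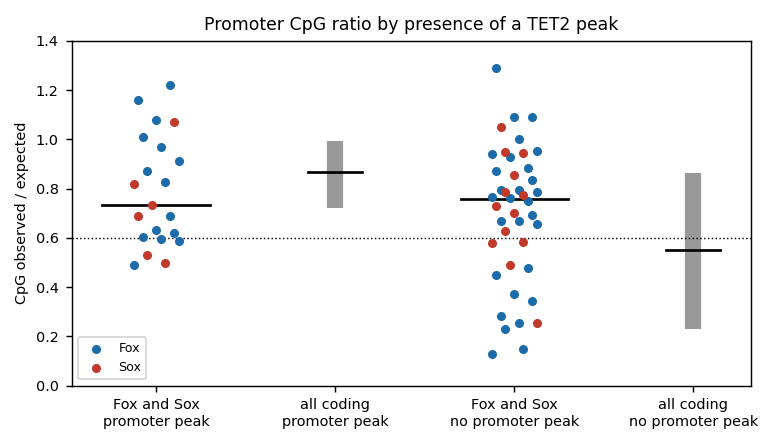
Observed over expected CpG ratio of the promoter (y axis) for Fox (blue) and Sox (red) genes with and without a TET2 peak within 1 kb of a TSS, 1 point per gene, beside the middle 50% of all protein-coding genes (grey bars). Black lines are medians, 0.734 and 0.756 for Fox and Sox genes and 0.869 and 0.551 for all coding genes, and the dotted line marks 0.6.

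The share was also set out by the number of starts. Of the 34 Fox and Sox genes with 1 annotated TSS, 9 had a promoter peak (26.5%, 12.9 to 44.4%), against 14.5% of such coding genes. Of the 29 with 2 or more, 12 had one (41.4%, 23.5 to 61.1%), against 27.4%. These intervals overlap and each includes the share of its coding genes, so they show neither a trend nor an excess. The part of the number of starts in the shares was not tested. Many of the genes are short, and 22 of 63 consist of a single exon, of which 7 had a promoter peak (31.8%) and 11 had any peak, against 18.2% and 23.8% of single-exon coding genes.

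**Figure D4:**
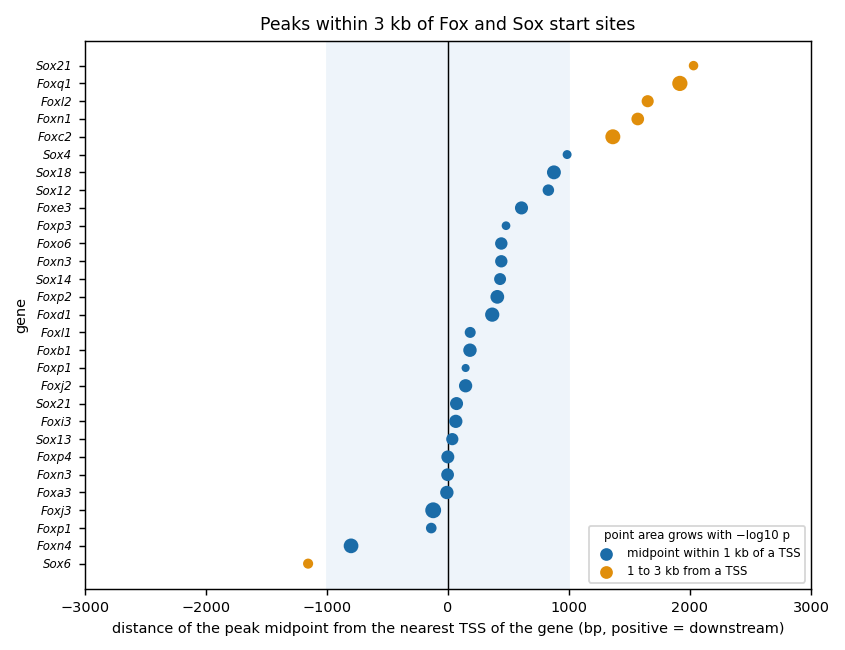
Distance of the peak midpoint from the nearest TSS of its gene (x axis, bp, positive downstream) for the 29 peaks within 3 kb of a Fox or Sox start, 1 line per peak, with larger points for larger −log10 p and the 1 kb window shaded. In the shaded window 17 of 23 midpoints lie downstream of the start.

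Peaks lay mostly inside the genes, as the plot of distances shows. Of the 23 promoter midpoints, 17 were downstream of the TSS (73.9%, 51.6 to 89.8%), with a median offset of +182 bp, against 67.3% and +86 bp over all coding genes. Within 200 bp of the TSS were 12 (52.2%), against 56.0%. For 22 of the 23 the nearest start of any gene was that of the Fox or Sox gene. A start of another gene also lay within 1 kb of 7 of them, at Foxa3 (Sympk), Foxb1, Foxj2, Foxj3, Foxn3, Foxp3 and Sox21. Just inside the 1 kb limit was Sox4, at 985 bp, and just outside were Sox6, at 1156 bp, and Foxc2, at 1363 bp.

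In terms of the transcript with the longest coding sequence, 15 of the 39 midpoints fell in a coding exon (38.5%, 23.4 to 55.4%), against 25.8% of all placements at coding genes. A further 5 fell in the 5′ untranslated exon part, 4 in the 3′ part, 5 in introns (12.8%, against 41.0%) and 10 upstream of that transcript, some of them inside the gene but before its main start. In promoters alone, 10 of 23 were in coding exons (43.5%, 23.2 to 65.5%), against 24.9%. The Sox promoter peaks were in coding exons at 5 of 6 genes, Sox4, Sox12, Sox13, Sox14 and Sox18, and the Fox ones at Foxe3, Foxi3, Foxl1, Foxo6 and Foxp1. Fox and Sox genes had a median of 2 exons, against 7 over all coding genes, and the part of gene structure in this count was not tested.

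The peaks themselves were rich in CpG. Their median CpG ratio was 0.820 and their median GC content 65.3%, against 0.512 and 59.5% over all deposited peaks. The promoter peaks had a median ratio of 0.848, against 0.789 for peaks within 1 kb of any coding TSS. At 1 to 3 kb the median was 0.890 over 6 peaks, against 0.490, and in gene bodies 0.497 over 10 peaks, against 0.372. Among the body peaks were CpG-rich ones at Foxc1 (0.915) and Foxo3 (0.758) and CpG-poor ones at Foxm1 (0.124) and Sox5 (0.157).

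Short sequence motifs were searched on both strands in the 200 bp around each midpoint, and their shares were set beside those at promoter peaks of any coding gene. The forkhead motif TGTTTAC was in 0 of 39 windows, which allows a share of up to 9.03%, against 0.619% at promoter peaks of any coding gene. The Sox motif ACAATG was in 1 window (2.56%), at the Foxp1 peak of 5.19, against 3.08%. The SP1 motif GGGCGG was in 19 windows (48.7%, 32.4 to 65.2%), against 46.9%, and against 26.5% at all deposited peaks. The 39 windows include 16 that are not at promoter peaks, and at the promoter peaks alone it was in 12 of 23 (52.2%, 30.6 to 73.2%). It was in 16 of 28 windows at Fox genes (57.1%, 37.2 to 75.5%) and 3 of 11 at Sox genes (27.3%, 6.02 to 61.0%), and these intervals overlap. The C/EBP motif TTGCNNAA was in 0 of 39, against 2.53%. None of these motifs contains another, a match is only a match of letters, and a missing match says only that these letters are not in the window.

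Fox genes lie in groups on several chromosomes, and these were looked at as units. Foxf1, Foxc2 and Foxl1 lie within 46259 bp on chromosome 8 (chr8:121084386-121130644), with 4 peaks inside this span, 86.5 per Mb (exact Poisson interval 23.6 to 221), against 5.17 per Mb over all chromosomes. Besides the peaks of Foxc2 and Foxl1, there was a peak of 7.78 at 197 bp from the start of Mthfsd and a peak of 6.47 at 4900 bp from the start of Foxf1. With 50 kb on each side the count was 6, and the added peaks had −log10 p of 7.57 (2248 bp from the start of Fendrr, a long noncoding RNA next to Foxf1) and 7.34. Foxf1, a factor of lung and gut mesenchyme, thus had no peak of its own but had peaks on both sides, at 3602 and 4900 bp from its start.

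The group of Foxq1, Foxf2 and Foxc1 on chromosome 13 (chr13:31556134-31812476) spans 256343 bp and held 3 peaks, 11.7 per Mb (2.41 to 34.2). These were the peaks of Foxq1 and Foxc1 and a peak of 5.31 that lay 5403 bp from the start of Foxf2, a factor of palate and gut development. The pair of Foxd2 and Foxe3 on chromosome 4 spans 19732 bp and held the Foxe3 peak alone. These densities rest on few peaks and are given as a description of the spans. The spans begin and end at genes, while the density over all chromosomes also covers stretches without genes. No density of other spans bounded by genes was computed, so the contrast cannot be read as particular to Fox genes.

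**Figure D5:**
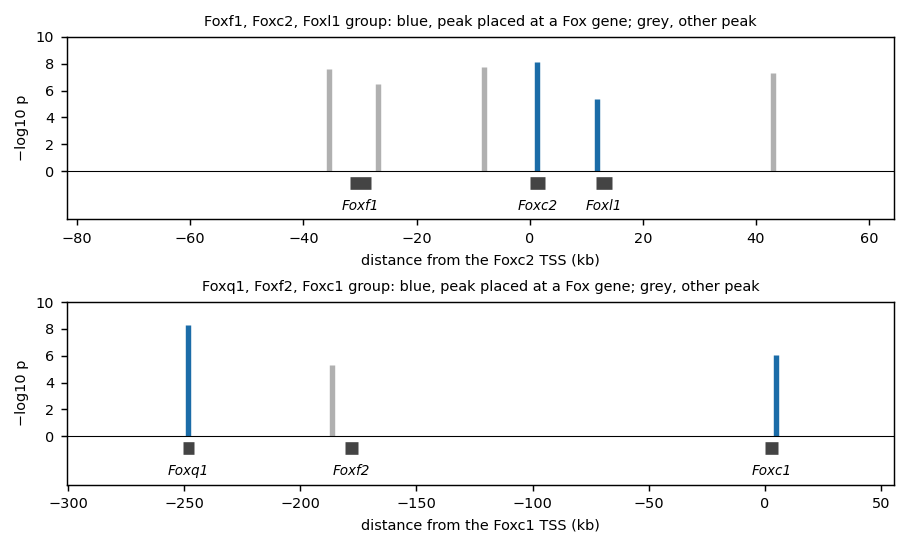
TET2 peaks (bars, height is −log10 p) along the Foxf1, Foxc2, Foxl1 group and the Foxq1, Foxf2, Foxc1 group with 50 kb on each side, by distance in kb from the TSS of Foxc2 or Foxc1. Blue bars are peaks placed at a Fox gene, grey bars are other peaks and dark boxes are the Fox gene bodies, with 4 and 3 peaks inside the 2 groups.

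The 31 Fox and Sox genes without a peak were a median of 33033 bp from the nearest one. For 12 of them the nearest peak was over 50 kb from a TSS, and for 7 it was within 10 kb, among them Foxf1, Foxf2, Sox1 and Sox2. Foxi1 had the most distant one among the autosomal genes, at 503551 bp.

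The genes around the Foxo proteins were described from lists of pathway members. Of 30 genes that control FoxO activity, such as insulin receptor, PI3 kinase, AKT and acetyltransferase genes, 13 had a promoter peak (43.3%, 25.5 to 62.6%) and 18 had any peak (60.0%), against 24.6% and 36.4% of all coding genes. Among the larger promoter values were those of Ep300 (9.27), an acetyltransferase, Pik3ca (7.40), a catalytic PI3 kinase subunit, Usp7 (7.28), a deubiquitinase, Igf1r (7.16), the IGF receptor, and Xpo1 (7.07), the nuclear exporter. Insr, the insulin receptor, also had a promoter peak (5.13).

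Of 26 known FoxO target genes, 12 had a promoter peak (46.2%, 26.6 to 66.6%) and 15 had any peak (57.7%). The largest promoter values were those of Cdkn1b (9.98), a cell cycle inhibitor, Ccng2 (9.06), a cyclin of quiescent cells, Bcl6 (8.85), a repressor, Pnpla2 (8.79), the first lipase of triglyceride breakdown, Bcl2l11 (7.68), a cell death factor, and Gabarapl1 (6.80), an autophagy protein. Insr and Irs2 are on both lists, so these counts share genes. The promoter intervals of both lists lie above 24.6%, while that of the control genes includes 37.4%, the share of all coding genes with CpG-rich promoters, as does that of the targets.

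The 19 other HMG-box genes, relatives of the Sox family, had a promoter peak at 7 (36.8%, 16.3 to 61.6%) and any peak at 10 (52.6%), against 24.6% and 36.4% of all coding genes and 37.4% and 50.6% of those with CpG-rich promoters. Their largest promoter values were those of Tcf7l2 (10.5), a Wnt effector, Cic (9.38), a repressor downstream of receptor kinases, Bbx (9.22), Hbp1 (8.10), a cell cycle repressor, Tcf7l1 (6.24), another Wnt effector, and Tox2 (5.13), of lymphocytes. By comparison the largest Sox promoter value was 7.28, and this difference has no replicate check.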

How the data were processed

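TET2 ChIP-seq was measured in 1 library of adipocytes differentiated from inguinal white fat stem cells of mice, with 1 input library. The authors checked the reads with FastQC, trimmed them with NGS QC Toolkit, aligned them with Bowtie and called peaks with MACS2 (version 2.1.0 in the submitters' processing notes) for the TET2 library over the input, without replicates. The deposited peak list gives each interval and the −log10 p-value of the caller. The processing notes name mm10 and the study's methods name GRCm39. GRCm38 (mm10) was used, and all peak ends lie within its chromosome lengths. No reads or counts were used, so the depth per sample is unknown.

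Peaks were placed by their midpoints at the genes of GENCODE release M21, by the windows of 1 kb and 3 kb given above, with Python 3.11.15, pandas 2.3.3 and scipy 1.17.1. A gene counted where any of its TSSs had a peak. Sequences were read from the RefSeq copy of GRCm38, and other matches were found with blastn 2.17.0. CpG ratio is the CpG count times length over the product of C and G counts. A window that overlapped a 5′ or 3′ untranslated region of a coding transcript was not printed, which removed Foxd1. Placement was tested on simulated peaks at or downstream of the start of long coding genes with a single transcript. The choice among several starts, upstream offsets and short genes were not part of that test. The 63 genes and the lists of subfamilies, pathway members and motifs were chosen with earlier results of these data known. Genes were named by a rule: the Foxo genes, Foxc2, genes with a promoter peak, with 2 or more peaks or among the 10 with the largest −log10 p, members of chromosomal groups, and up to 6 per pathway list by promoter −log10 p. Others named here were added to account for the remaining genes, after their values were seen, and some genes are not reported here by name. Alternatives were peaks counted by any base, −log10 p of at least 5 or 7, a 2 kb window, starts of coding transcripts or of RefSeq, peaks without a nearer start of another gene, motif windows of 50 or 250 bp each side, and the outermost TSS for CpG ratios.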

Additional observations from a re-analysis of the deposited data

How the results depend on the processing

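With 1 TET2 library, no result has a replicate, none was tested, and a replicate could not be left out. No paired analysis was possible because the list holds peaks of 1 library called over 1 input. Of 49 alternative values, 42 were labelled the same and 7 moved. A share was the same within the counting interval of the value reported, and a count of peaks within 1.5 times. Medians have no counting interval and were not judged by either limit. The 7 that moved came from stricter peaks or a shorter motif window. With peaks of −log10 p of at least 7, the share with a promoter peak was 7.94% of Fox and Sox genes, 9.09% of Fox genes and 5.26% of Sox genes. The share with any peak was 15.9%, and 10 peaks with a median of 8.01 were left. That median could not fall below 7, since only peaks of at least 7 were kept. With peaks of at least 7, 12% of all coding genes had a promoter peak and 18.4% any peak. Both shares of Fox and Sox genes were then lower in value than these, while they were higher with all peaks. They rest on 5 and 10 of 63 genes and no interval is given, so a lower share is not shown. With 50 bp each side of the midpoint, the share of windows with the Sox motif was 0.0%.

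Which genes had a promoter peak moved little otherwise. Counting any base added Foxc2 and Sox6, a −log10 p of at least 5 removed Foxp3 and Sox4, RefSeq starts removed Foxp3 and Sox13 and added Foxq1 and Sox6, and a 2 kb window added Foxc2, Foxl2, Foxn1, Foxq1 and Sox6. Without the peaks that have a nearer start of another gene, the share with any peak was 38.1% (24 of 63), against 50.8% with all peaks. The share of all coding genes was not computed under this limit, and their 36.4% with all peaks is not a like background. Whether the Fox and Sox share then stays above that of coding genes was therefore not tested.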
